A study of Homo sapiens with 14 samples.

Results

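The data describe PANC-1 cells treated with transforming growth factor beta 1 (TGFb1) alone, set against untreated PANC-1 cells, across all genes of a human expression array. PANC-1 is an established line from a human pancreatic duct carcinoma. The arrays were taken by their titles, 4 arrays of cells given TGFb1 at 5 ng/ml for 48 h and 4 control arrays, which makes 8 of the 14 arrays of the series. Cells of both groups were grown in 10% fetal calf serum and kept for 24 h in 1% serum before stimulation, and the protocol names vehicle as the control stimulus while the control samples are labelled as untreated. Of the other 6 arrays, 3 had TGFb1 with acriflavine at 2.5 µM and 3 had TGFb1 with sodium valproate at 2 mM. They entered neither of the means compared, but entered the estimate of the spread, the choice of probe sets and the choice of genes tested. The series describes its replicates as biological. All groups share 1 cell line and 1 time point, and TGFb1 was given at 1 dose.

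TGFb1 is secreted in a latent complex and, once released, binds a pair of serine/threonine kinase receptors that phosphorylate SMAD2 and SMAD3. These enter the nucleus with SMAD4 and change transcription of target genes, among them inhibitors such as SMAD7 that close the loop. In epithelial and carcinoma cells the pathway is known for the epithelial-mesenchymal transition, in which SNAI and ZEB family repressors silence E-cadherin and other junction genes while matrix and cytoskeletal genes are induced.

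Each value is a log2 intensity, and each change is the TGFb1 mean minus the control mean on the log2 scale, ± the standard error (SE) of the fit, so that 1 log2 unit is a 2-fold difference. A gene is said to have risen or fallen only where its adjusted p was under 0.05 among the 10877 genes tested. By this rule 913 genes rose, 8.39% of those tested, and 1084 fell, 9.97%, and 18.4% changed either way. At least 2-fold changes were found in 136 genes that rose (1.25%) and 144 that fell (1.32%). The median change over all genes tested was 0.0016 and the SD of the changes 0.37. Values of single arrays are given in the order of replicates 1 to 4.

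The response had a longer tail upwards. Of the genes that rose, 26 were up by at least 2 log2 units and 6 by at least 3, against 15 and 0 of those that fell. Many calls were small, with 52.1% of the risen and 48.1% of the fallen genes under 0.5 log2 units. The median size was 0.48 for rises and 0.51 for falls. Of the genes up at least 2-fold, 30 had a control mean below 6.89, the lowest mean of any gene tested, and of those down at least 2-fold 30 had a TGFb1 mean below it. Such genes passed the filter by their mean over all 14 arrays, the drug-treated ones included, although their control or TGFb1 mean lay below the limit. The sizes of their changes are set against dim values. Of the genes named here these were ADAM19, BMP1, COL4A1, COL4A2, COL5A1, FOXS1, IL11, NEDD9, NKAIN4, ST14, TMEM92 and WNT11 among the rises, and ADAMTS1, ANXA3, C3, CASP1, CCL20, CDH1, CLDN11, CXCL5, EREG, KLF5, LCN2, MAP2K6, MX1, MYLK, PPP1R1B, RAB17, SCNN1A, TGFBR3 and TWIST2 among the falls, counting also falls and rises under 2-fold. The TGFb1 arrays all lay above the control arrays in 918 genes (8.44%) and all below in 1039 (9.55%), 18.0% together, and 1602 of these had passed the test. The plot of changes against brightness shows the risen genes reaching farther from 0 than the fallen ones.

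**Figure D1:**
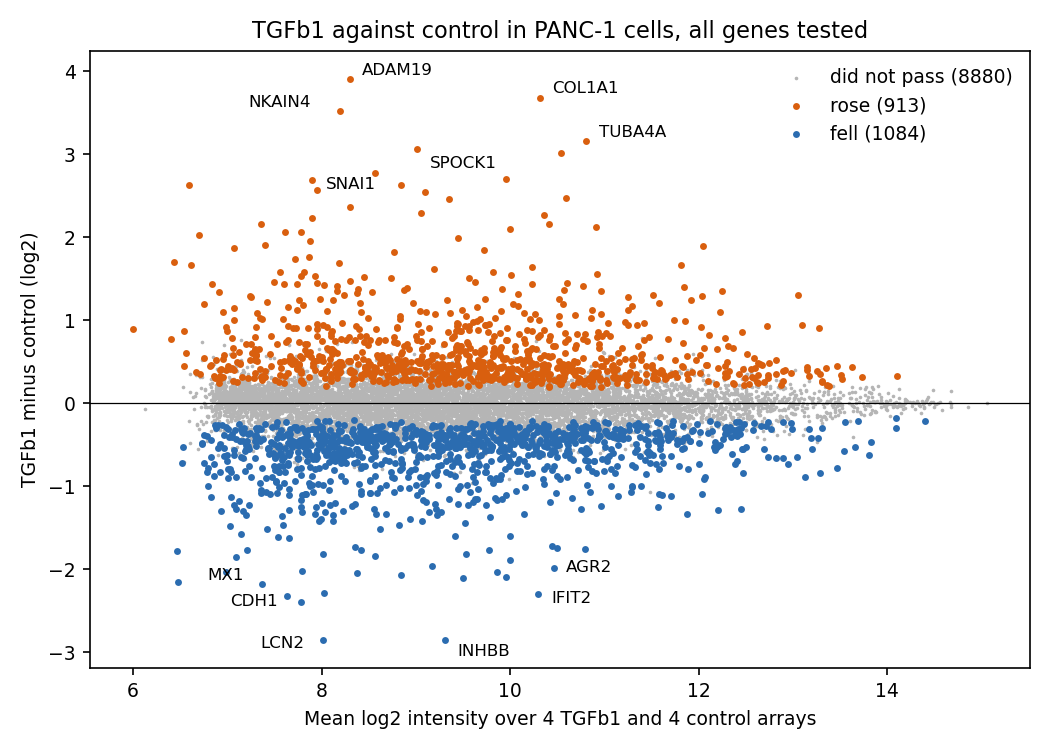
Each point is 1 of the 10877 genes tested, with its mean log2 intensity over the 8 TGFb1 and control arrays on the x axis and its TGFb1 minus control change on the log2 scale on the y axis. Orange points are the 913 genes that rose, blue points the 1084 that fell and grey points the rest, and ADAM19 at the top (3.91) lies farther from 0 than INHBB at the bottom (-2.85).

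Some arrays stood apart from their groups. Across genes, TGFb1 replicate 4 deviated from the mean of its group with an SD of 0.375, replicate 2 of the same group with 0.256 and control replicate 4 with 0.250, while the remaining TGFb1 and control arrays had at most 0.160. The deviations of same-numbered TGFb1 and control arrays correlated across genes at 0.387, 0.359, 0.543 and 0.705, although replicates 1 to 3 alone gave -0.258, 0.151 and 0.589. Counts, SEs and adjusted p values are from a fit without pairing unless another fit is named. The replicate number was added as a block in an alternative fit. With the number as a block 1432 genes rose (13.2%) and 1716 fell (15.8%), and all 1997 genes called without it were among them. Without both replicates 4, 1385 rose and 1770 fell, and 1870 of the 1997 remained. Without TGFb1 replicate 4 alone 1317 genes rose and 1832 fell. Counts of a list with the block or without an array are to be read beside the totals over all genes in the same fit. Of the 1997 calls, 1250 (62.6%) were kept in the same direction when any 1 of the 8 arrays was left out. Markers of the duct epithelium were present, with 9 of 11 above the brightness limit for testing, which left out the dimmest 40% of genes by their mean over all arrays. Of the markers of acinar and endocrine pancreas 1 of 9 lay above it, of leukocytes 3 of 13, of endothelium 3 of 10 and of hepatocytes 3 of 10. Among those above it, 1 leukocyte marker rose, 1 endothelial marker rose and 1 fell, and 1 hepatocyte marker fell (1 also rose without TGFb1 replicate 4). The acinar and endocrine marker above it did not pass. The summed log2 level of the 9 acinar and endocrine markers was 46.6 to 49.1 in TGFb1 arrays and 47.1 to 47.6 in control arrays. Of 14 fibroblast and stellate cell markers 5 lay above the limit and 3 rose (COL1A1, COL3A1 and THY1), and the summed level of the list was 86.4 to 90.5 in TGFb1 arrays and 81.7 to 83.0 in control arrays. Of the duct markers 5 fell (3 without TGFb1 replicate 1 or 3 or control replicate 2 or 4), with a sum of 108 to 111 in TGFb1 arrays and 115 to 117 in control arrays. The part of other cells in any change was not tested, and in these bulk arrays fewer cells of a type and less RNA per cell cannot be told apart. Probe sets of families with near-identical members, such as HLA, histone and tubulin genes, may detect more than 1 of them.

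The ligand side of the pathway moved in both directions. Of 14 tested genes of TGFb family ligands and their latency proteins, 5 rose and 3 fell, and without TGFb1 replicate 4 the rises numbered 8. LTBP2, a latent TGFb binding protein that sits in the matrix, measured 12.70, 12.45, 12.78 and 12.66 in TGFb1 arrays, against 10.82, 10.87, 10.97 and 11.26 in control arrays. All TGFb1 arrays lay above all control arrays, a rise of 1.67 ± 0.0999 (adjusted p = 7.58e-08). LTBP3, which tethers latent TGFb for secretion, rose by 1.19 ± 0.0961 (adjusted p = 1.54e-06). TGFB1 itself measured 10.22, 10.48, 10.20 and 8.90 in TGFb1 arrays, against 9.06, 9.06, 9.01 and 7.73 in control arrays. Its groups overlapped and both replicates 4 were low, and the rise of 1.24 ± 0.33 (adjusted p = 0.0186; adjusted p = 8e-07 under the block) did not pass without TGFb1 replicate 2 (1.06, adjusted p = 0.0573). BMP1, the protease that trims procollagens and releases latent complexes, rose by 0.45 ± 0.078. In the other direction, INHBB, the beta B chain of activin B and inhibin B, had 7.71, 7.92, 7.82 and 8.08 in TGFb1 arrays, against 10.76, 10.79, 10.86 and 10.53 in control arrays. No TGFb1 array reached the lowest control array, and INHBB fell by 2.85 ± 0.0978 (adjusted p = 4.32e-10). GDF15, a distant member of the ligand family and a marker of cell stress, fell by 0.89 ± 0.191 (adjusted p = 0.00521), and NRROS, a membrane anchor of latent TGFb1 known from microglia, fell by 0.73 ± 0.0954.

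Receptors and SMADs are the signalling core of the pathway. Of 8 receptors tested 2 rose and 1 fell. ENG (endoglin, a co-receptor) rose by 0.39 ± 0.0912 and ACVR1, a type I receptor of bone morphogenetic proteins, rose by 0.44 ± 0.0945. TGFBR3, the co-receptor betaglycan that presents ligand to the signalling receptors, measured 6.27, 6.23, 6.30 and 7.0 in TGFb1 arrays, against 7.39, 7.32, 7.54 and 8.66 in control arrays. Every TGFb1 value was below every control value, and TGFBR3 fell by 1.27 ± 0.254 (adjusted p = 0.00313), while both replicates 4 were higher than the rest of their groups. TGFBR2, the type II receptor, was at -0.21 ± 0.148 (adjusted p = 0.375; adjusted p = 0.0467 under the block) and also passed without TGFb1 replicate 4 (-0.35, adjusted p = 0.046). Of 6 tested genes of signalling SMADs and their anchor protein 2 fell, SMAD3 by 0.44 ± 0.0785 (adjusted p = 0.0014) and SMAD1, a transducer of the bone morphogenetic protein branch, by 0.36 ± 0.0918 (adjusted p = 0.0139). SMAD4, the shared partner, was at -0.073 ± 0.0935 (adjusted p = 0.648), and SMAD2 at -0.22 ± 0.106 (adjusted p = 0.181, and adjusted p = 0.0422 with the block). Another SMAD2 probe set passed when tested separately (-0.28, adjusted p = 0.0303), while the rest did not. With the replicate block 4 SMAD genes fell, and of the receptors 4 rose and 2 fell, where 13.2% of all genes tested rose and 15.8% fell. Without TGFb1 replicate 4 the receptor falls numbered 2 and the SMAD falls 4, with SMAD2 among the SMAD falls (-0.29, adjusted p = 0.0427).

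Inhibitors of the pathway rose in most of their tested members. Of 15 tested, 9 rose and 0 fell, with a median change of 0.68 against 0.0016 over all genes tested. PMEPA1, a membrane protein that keeps SMAD2 and SMAD3 from the receptor, measured 13.07, 12.95, 13.07 and 12.87 in TGFb1 arrays, against 11.01, 11.14, 11.08 and 11.17 in control arrays. The groups were more than 1 log2 unit apart, with a rise of 1.89 ± 0.0703 (adjusted p = 9.44e-10). NOG, the secreted antagonist noggin of bone morphogenetic proteins, measured 12.14, 12.13, 11.98 and 11.07 in TGFb1 arrays, against 9.13, 9.65, 9.37 and 9.29 in control arrays. Replicate 4 had the lowest of the TGFb1 values, still above every control, and the rise was 2.47 ± 0.196. SMAD7 rose by 1.31 ± 0.11 and SKIL, a co-repressor bound to SMADs, by 0.98 ± 0.175. SMAD6, the inhibitory SMAD of the bone morphogenetic protein branch, was at -0.019 ± 0.33 (adjusted p = 0.978), and TGIF1, a homeobox co-repressor, at 0.021 ± 0.0889, and neither passed.

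Known TGFb targets rose in 16 of 22 tested and fell in 0 (1 without TGFb1 replicate 3), with a median of 1.06. NEDD9, a scaffold of focal adhesions and cell migration, measured 8.07, 8.06, 7.87 and 7.62 in TGFb1 arrays, against 5.10, 5.53, 5.40 and 5.07 in control arrays. Its control arrays lay below 6.89, the lowest mean of any gene tested, and its TGFb1 arrays above it, and the rise was 2.63 ± 0.139 (adjusted p = 2.73e-08). IL11, a cytokine of the gp130 family, had 9.43, 9.16, 9.29 and 8.18 in TGFb1 arrays, against 7.26, 6.77, 7.12 and 6.0 in control arrays. Both replicates 4 were low and the groups did not overlap (2.23 ± 0.276). JUNB, an AP-1 factor, rose by 1.43 ± 0.291 (adjusted p = 0.00354) and CDKN1A, the cell cycle inhibitor p21, by 0.72 ± 0.139 (adjusted p = 0.00241). The CDKN1A difference was 0.11 in replicate 4 and 0.87 to 1.04 in replicates 1 to 3. ID1, an inhibitor of basic helix-loop-helix factors, rose by 1.10 ± 0.149 (adjusted p = 0.000152). CCN2, connective tissue growth factor, rose by 0.43 ± 0.11 (adjusted p = 0.0146), less than the median of the list, and its groups overlapped. MYC, which TGFb is known to repress in many epithelia, was at 0.35 ± 0.182, short of the threshold (adjusted p = 0.214), and passed with the block (adjusted p = 0.00215) and without TGFb1 replicate 4 (0.51, adjusted p = 0.0287).

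**Figure D2:**
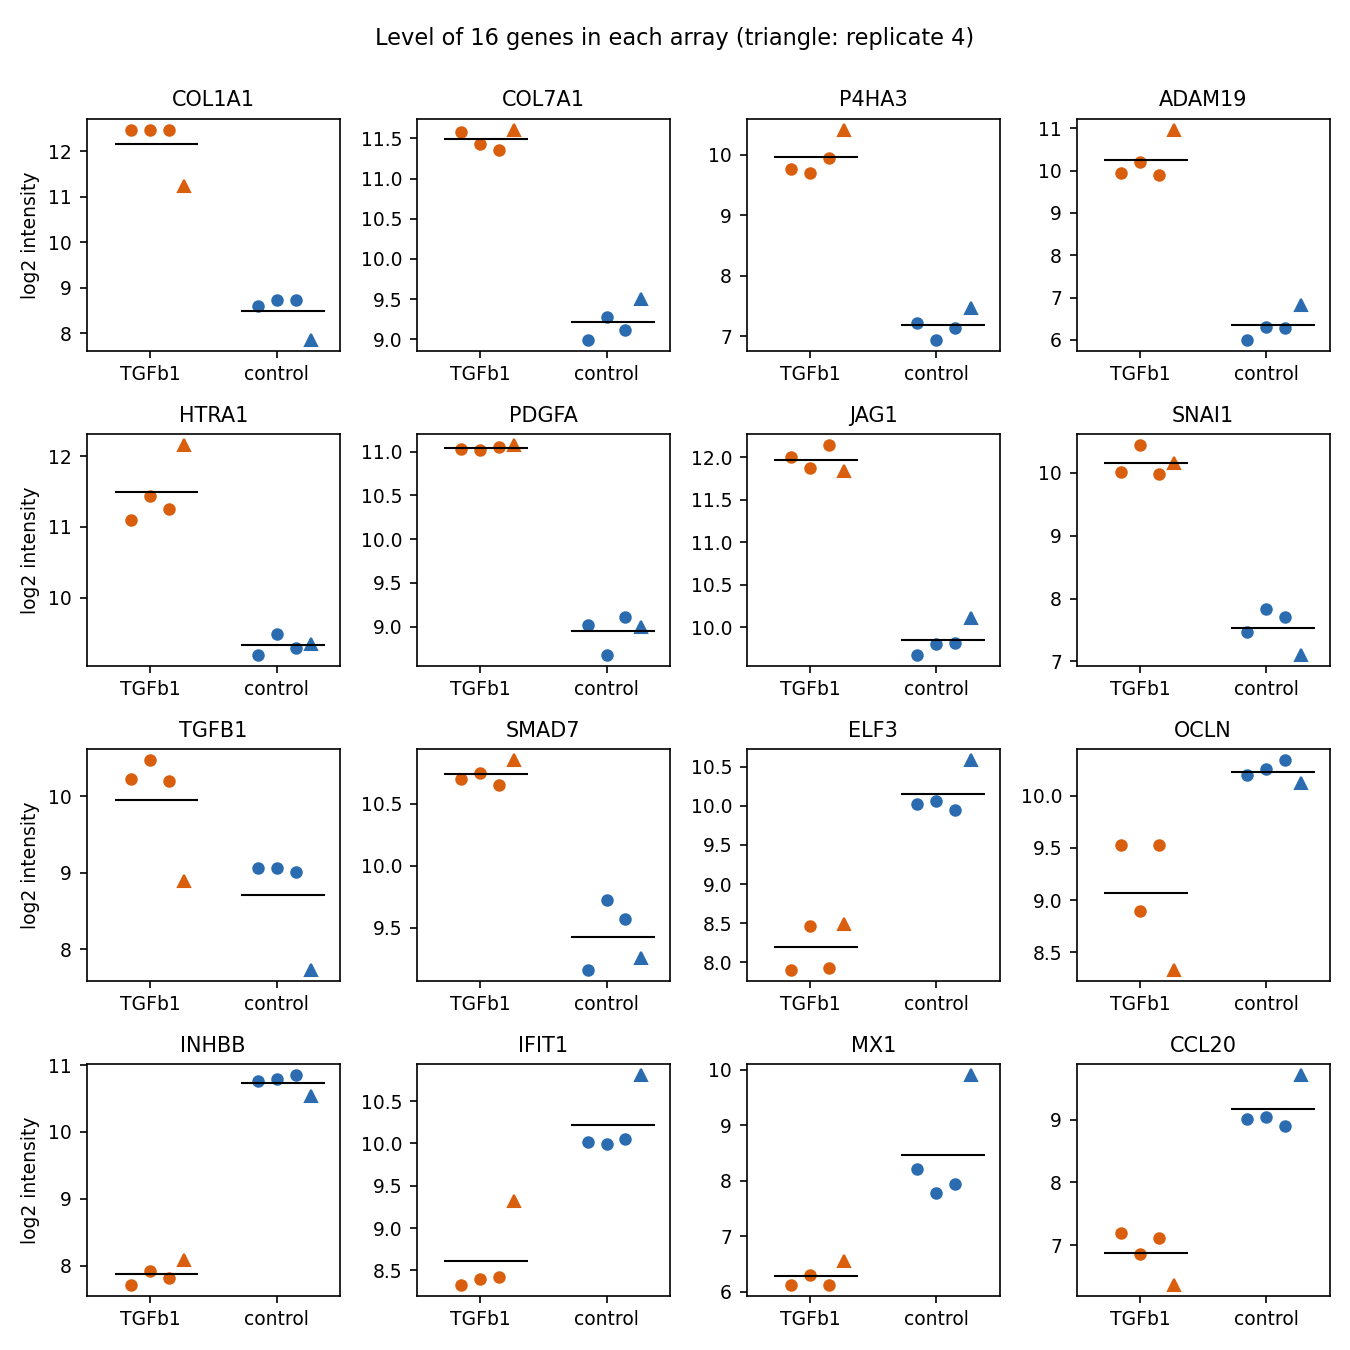
Log2 intensity of 16 genes named in the text in each array, with the 4 TGFb1 arrays on the left and the 4 control arrays on the right of each panel. Circles are replicates 1 to 3, triangles are replicate 4 and the bar is the group mean. In 15 of the 16 panels the groups do not overlap, the exception being TGFB1.

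Among transcription factors of the epithelial-mesenchymal transition, 4 of 8 tested rose and 1 fell, with a median of 0.41. SNAI1, the zinc finger repressor Snail, measured 10.02, 10.45, 9.99 and 10.15 in TGFb1 arrays, against 7.47, 7.84, 7.70 and 7.10 in control arrays, with the highest value in TGFb1 replicate 2, and rose by 2.63 ± 0.146. HMGA2, a chromatin protein known to act upstream of SNAI1, rose by 0.66 ± 0.104 (adjusted p = 0.00049), SOX4 by 0.59 ± 0.0941 and TCF3, the E12/E47 factor, by 0.37 ± 0.0669. TWIST2 fell by 0.83 ± 0.219 (adjusted p = 0.0183) but did not pass without TGFb1 replicate 1 (-0.67, adjusted p = 0.0545) or control replicate 4 (-0.68, adjusted p = 0.0509). ZEB1 was at -0.068 ± 0.156 (adjusted p = 0.811). SNAI2, ZEB2 and TWIST1 were too dim to be tested. SNAI2 measured 7.26, 6.85, 7.07 and 6.93 in TGFb1 arrays, against 5.22, 5.11, 5.04 and 5.35 in control arrays, and all 4 TGFb1 arrays were above the controls.

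Epithelial transcription and splicing factors moved the other way, with 0 rises and 6 falls among 10 tested and a median of -0.77. ELF3, an ETS factor of simple epithelia, measured 7.90, 8.47, 7.93 and 8.49 in TGFb1 arrays, against 10.02, 10.06, 9.95 and 10.59 in control arrays. No TGFb1 array came within 1 log2 unit of a control array, and ELF3 fell by 1.96 ± 0.17 (adjusted p = 2.94e-06). GRHL3 and GRHL1, grainyhead-like factors that activate junction genes, fell by 1.34 ± 0.113 and 0.94 ± 0.118. KLF5, a zinc finger factor of proliferating epithelia, fell by 1.30 ± 0.301 (adjusted p = 0.00844). FOXA2 fell by 0.63 ± 0.172 (adjusted p = 0.0215) and did not pass without control replicate 1, 2 or 3 or TGFb1 replicate 3 (adjusted p = 0.0501 to 0.0684). ELF1, an ETS factor of blood cells and many other tissues, was at -0.25 ± 0.117. ESRP1, the epithelial splicing regulator, lay below the brightness limit and has no test, at 6.82, 5.93, 6.96 and 5.99 in TGFb1 arrays, against 7.41, 7.29, 7.57 and 7.71 in control arrays.

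Junction genes also fell. Of 17 tested genes of tight junctions and polarity 0 rose and 11 fell, with a median of -0.64. OCLN, the membrane protein occludin, measured 9.52, 8.90, 9.53 and 8.33 in TGFb1 arrays, against 10.20, 10.26, 10.35 and 10.12 in control arrays. All TGFb1 values were below the controls, and TGFb1 replicates 2 and 4 were the lowest, and OCLN fell by 1.16 ± 0.207 (adjusted p = 0.00141). CLDN3, a sealing claudin, fell by 1.40 ± 0.119 (adjusted p = 2.62e-06), and PARD6B, a polarity scaffold at the apical membrane, by 1.25 ± 0.121 (adjusted p = 8.3e-06). CLDN1 fell by 1.28 ± 0.306 (adjusted p = 0.00981), and by 0.80 without both replicates 4. TJP1, the scaffold ZO-1, was at -0.18 ± 0.0915 and SCRIB, a basolateral polarity protein, at 0.21 ± 0.0781, and neither passed, although SCRIB did without both replicates 4 (0.25, adjusted p = 0.0343).

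Of 10 adherens junction genes 1 rose (10%) and 2 fell (20%), beside 8.39% and 9.97% of all genes tested, with a median of 0.02. CDH1, E-cadherin, measured 6.55, 6.59, 6.28 and 6.90 in TGFb1 arrays, against 8.36, 9.06, 8.59 and 9.91 in control arrays. JUP, plakoglobin, fell by 0.64 ± 0.103, CDH2, N-cadherin, rose by 0.48 ± 0.0733, and CTNNA1, alpha-catenin, was at -0.015 ± 0.067. Of 10 desmosome and keratin genes 0 rose (1 without TGFb1 replicate 2) and 4 fell, and 2 fell without TGFb1 replicate 1 or 3 or control replicate 2 or 4. PPL, periplakin, which links keratin filaments to the membrane, measured 8.65, 9.20, 8.69 and 8.87 in TGFb1 arrays, against 10.84, 10.92, 10.87 and 10.89 in control arrays. Each TGFb1 array lay more than 1 log2 unit below every control, and PPL fell by 2.03 ± 0.113 (adjusted p = 3.57e-08). KRT18, a keratin of simple epithelia, fell by 0.62 ± 0.136 (adjusted p = 0.00551), while DSP, desmoplakin, was at -0.17 ± 0.136. KRT19 fell by 0.84 ± 0.263 (adjusted p = 0.0417) but not without TGFb1 replicate 1 or 3 or control replicate 2 or 4, and its lowest such adjusted p was 0.0816.

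SNAI and ZEB proteins are known to bind the E-box CACCTG, so promoter sequences from RefSeq (GRCh38.p14, 250 bases before to 50 after the start site) were searched for these letters on both strands. The motif was in 20.6% of all 35116 promoter windows, in 18.6% of windows of tested genes, 16.1% of those of risen and 23.0% of those of fallen genes. Of 20 windows of genes that fell in the epithelial factor and junction lists, 8 (40%) held it. These were in 7 of the 15 such genes with a window, out of 23 that fell. Members of these lists that did not fall were not searched as a set, so the share describes these genes and not the treatment. The windows of ELF3, OCLN and CLDN3 are shown because these genes fell and hold the letters, which are in capitals (CACCTG or its reverse complement CAGGTG). That of ELF3 is chr1:202010337-202010636 (+), that of OCLN chr5:69492297-69492596 (+) and that of CLDN3 chr7:73770221-73770520 (-), each printed 5′ to 3′ along the gene. The match begins at -120 from the start site in ELF3, at -33 in OCLN and at 37 in CLDN3. OCLN has 2 windows in the table, of which the one with the match is given.
ELF3: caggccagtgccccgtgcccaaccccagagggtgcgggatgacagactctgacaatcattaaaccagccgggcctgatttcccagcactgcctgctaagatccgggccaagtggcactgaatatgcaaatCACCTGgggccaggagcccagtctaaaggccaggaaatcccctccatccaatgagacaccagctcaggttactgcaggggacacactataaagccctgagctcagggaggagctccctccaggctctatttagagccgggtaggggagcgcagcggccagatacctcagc
OCLN: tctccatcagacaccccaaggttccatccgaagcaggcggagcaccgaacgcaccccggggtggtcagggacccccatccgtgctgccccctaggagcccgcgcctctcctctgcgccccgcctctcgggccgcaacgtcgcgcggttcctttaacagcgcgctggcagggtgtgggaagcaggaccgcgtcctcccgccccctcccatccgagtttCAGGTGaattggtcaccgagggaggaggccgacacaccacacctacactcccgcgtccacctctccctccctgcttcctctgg
CLDN3: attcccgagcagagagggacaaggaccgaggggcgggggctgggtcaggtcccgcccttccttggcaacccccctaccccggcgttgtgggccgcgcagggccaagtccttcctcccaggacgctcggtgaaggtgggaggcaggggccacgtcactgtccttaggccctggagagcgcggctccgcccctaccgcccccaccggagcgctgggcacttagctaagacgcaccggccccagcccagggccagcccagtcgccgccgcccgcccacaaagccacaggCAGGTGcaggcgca
A match is only a description of the letters in the window, and binding was not measured. The palindromic SMAD box GTCTAGAC, on both strands, was in 0.202% of all windows and in 0 of 1139 windows of risen genes.

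Matrix genes were among the largest rises. Of 5 fibrillar collagens tested 4 rose and 1 fell. COL1A1, the main chain of type I collagen, had 12.45, 12.48, 12.46 and 11.24 in TGFb1 arrays, against 8.61, 8.73, 8.72 and 7.85 in control arrays. Both replicates 4 were lower than the rest of their groups, and the rise was 3.68 ± 0.254. COL5A1, of type V collagen, rose by 2.69 ± 0.117, COL3A1, of type III, by 0.73 ± 0.124 and COL5A2 by 0.58 ± 0.0859. COL11A1, a chain of the minor fibril collagen XI, fell by 0.96 ± 0.115 (adjusted p = 5.29e-05), against the direction of the other 4. Among 17 collagen chains of all types 8 rose and 2 fell, the other fall being COL12A1, a collagen on the surface of fibrils (-1.31).

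Basement membrane genes were split, 4 up and 4 down of 13. COL7A1, which anchors the basement membrane of the skin to the tissue below, measured 11.57, 11.43, 11.35 and 11.61 in TGFb1 arrays, against 8.99, 9.27, 9.12 and 9.50 in control arrays. The rise was 2.27 ± 0.103 (adjusted p = 5.29e-09), with more than 1 log2 unit between the groups. COL4A2, a chain of the type IV network, rose by 2.06 ± 0.152 beside its partner COL4A1 (2.56 ± 0.192). The laminin chains LAMA5 and LAMB1 fell by 0.75 ± 0.0837 and 0.69 ± 0.152, and the heparan sulfate proteoglycan AGRN, agrin, by 0.24 ± 0.0572, a call lost with the mean of its probe sets (-0.12, adjusted p = 0.236). LAMA4, a laminin of vessel walls, rose by 0.90 ± 0.289 (adjusted p = 0.045) but not without control replicate 1, 2 or 3 (adjusted p = 0.0953 to 0.121), and by 0.54 without TGFb1 replicate 4. NID1, nidogen, was at -0.098 ± 0.0974.

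Enzymes that modify collagen rose in 10 of 25 and fell in 0, with a median of 0.30, and with the replicate block 12 rose and 1 fell, as 1 did without TGFb1 replicate 4. P4HA3, an alpha subunit of prolyl 4-hydroxylase, had 9.76, 9.70, 9.94 and 10.42 in TGFb1 arrays, against 7.22, 6.93, 7.13 and 7.46 in control arrays. The groups were 2 log2 units or more apart in every replicate. PLOD1, which hydroxylates collagen lysines, measured 11.44, 11.76, 11.45 and 11.94 in TGFb1 arrays, against 10.08, 10.34, 10.04 and 10.71 in control arrays, and rose by 1.35 ± 0.144 (adjusted p = 1.78e-05). PCOLCE2, an enhancer of procollagen cleavage, rose by 1.02 ± 0.091 and P3H1, a prolyl 3-hydroxylase, by 0.68 ± 0.155. P4HB, the bright beta subunit of prolyl hydroxylase, was at 0.12 ± 0.073 (adjusted p = 0.269) and did not pass. PPIB, cyclophilin B, was at 0.37 ± 0.126 (adjusted p = 0.0589), and passed with the block (adjusted p = 0.00636) and without TGFb1 replicate 1 or 3 or control replicate 4 (adjusted p = 0.0243 to 0.0449).

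Enzymes that build the sugar chains of proteoglycans also changed. Of 31 tested enzymes of glycosaminoglycan synthesis 10 rose and 0 fell, with a median of 0.23. With the replicate block 15 rose and 4 fell, where 13.2% of all genes tested rose and 15.8% fell. Without TGFb1 replicate 4 there were also 4 falls, and 1 fell without control replicate 1 or 4. CHST11, which sulfates chondroitin at the 4 position, measured 8.85, 8.89, 8.93 and 9.46 in TGFb1 arrays, against 7.56, 7.47, 7.43 and 7.77 in control arrays. TGFb1 replicate 4 was the highest, and all TGFb1 arrays exceeded the controls (1.47 ± 0.121, adjusted p = 1.77e-06). CHST3, which sulfates chondroitin at the 6 position, rose by 1.08 ± 0.126. HAS2, the main hyaluronan synthase of mesenchymal cells, rose by 1.25 ± 0.226 (adjusted p = 0.00153), with TGFb1 replicate 4 more than 1 log2 unit above the other 3. SULF2, which trims sulfate from heparan chains outside the cell, rose by 1.16 ± 0.215. UGDH, which makes the UDP-glucuronate that these chains use, was at 0.10 ± 0.125. GXYLT2, a xylosyltransferase that acts on Notch and not on proteoglycans, was among the largest rises of all, at 9.37, 9.33, 9.42 and 9.79 in TGFb1 arrays, against 7.29, 6.90, 6.98 and 7.29 in control arrays. Its groups were 2 log2 units or more apart, and the rise was 2.36 ± 0.12.

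Core matrix proteins rose in 7 of 22 and fell in 1, with a median of 0.12, so most did not pass. SPOCK1, a secreted proteoglycan of the testican family, measured 10.26, 10.17, 10.40 and 11.34 in TGFb1 arrays, against 7.28, 6.89, 7.18 and 8.61 in control arrays (3.06 ± 0.315). TGFBI, a matrix protein that binds collagens and integrins, rose by 1.31 ± 0.114. SDC1, a heparan sulfate proteoglycan of the cell surface, rose by 1.12 ± 0.0868 while its relative SDC4 fell by 0.91 ± 0.106 (adjusted p = 3.98e-05), and this was the 1 fall. Without TGFb1 replicate 4 there were 3 falls, and without control replicate 1 or with the replicate block there were 2. FN1, fibronectin, was at 0.76 ± 0.298 (adjusted p = 0.0964; adjusted p = 0.00148 under the block), and passed without TGFb1 replicate 2 (0.97, adjusted p = 0.0439). Its other 2 probe sets passed when tested separately, at 0.72 (adjusted p = 0.0382) and 1.68 (adjusted p = 0.0445). THBS1, thrombospondin 1, an activator of latent TGFb, rose by 1.02 ± 0.267 (adjusted p = 0.0166) but not without control replicate 1 (0.85, adjusted p = 0.0527) or 3 (0.92, adjusted p = 0.0566). MFGE8, a bright lactadherin, was at 0.054 ± 0.251.

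Proteases and their inhibitors changed in both directions. Of 17 metalloproteases and inhibitors 4 rose and 3 fell. ADAM19, a membrane metalloprotease of the meltrin group and the largest rise among all genes tested, measured 9.95, 10.21, 9.89 and 10.97 in TGFb1 arrays, against 5.99, 6.29, 6.27 and 6.82 in control arrays. All 4 control arrays lay below the limit of 6.89, so the size of the rise (3.91) is set against dim values, and with the mean of its probe sets it was 1.21. MMP2, gelatinase A, MMP14, its membrane-bound activator, and TIMP2, which takes part in that activation, rose by 1.25 ± 0.0941, 0.68 ± 0.0861 and 1.27 ± 0.133. ADAM17, which sheds growth factors and TNF, fell by 0.37 ± 0.0774 and ADAMTS1 by 0.83 ± 0.116. Of 22 serine proteases and serpins 5 rose and 6 fell. HTRA1, a secreted protease that cleaves matrix and TGFb family proteins, measured 11.10, 11.43, 11.26 and 12.17 in TGFb1 arrays, against 9.19, 9.48, 9.29 and 9.35 in control arrays. The highest array was TGFb1 replicate 4, and the rise was 2.16 ± 0.177 (adjusted p = 1.75e-06). FURIN, the convertase that processes the TGFb1 precursor, rose by 1.09 ± 0.101 (adjusted p = 5.25e-06). ST14, matriptase, rose by 0.61 ± 0.123, whereas its inhibitor SPINT1 fell by 1.21 ± 0.123 (adjusted p = 1.24e-05). TMPRSS2, a transmembrane serine protease of epithelia, measured 8.19, 8.76, 8.18 and 8.66 in TGFb1 arrays, against 10.20, 10.93, 10.40 and 10.70 in control arrays and was among the largest falls (-2.11). TFPI, the inhibitor of the tissue factor pathway of coagulation, fell by 1.10 ± 0.135, and PLAU, urokinase, was at -0.17 ± 0.123.

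Integrins changed in both directions. Of 10 tested, 4 rose and 2 fell, with a median of 0.29. ITGA5, the alpha chain of the fibronectin receptor, had 11.17, 11.34, 11.20 and 10.49 in TGFb1 arrays, against 9.54, 9.64, 9.59 and 8.88 in control arrays. Both replicates 4 were lower than the other arrays of their group, and the rise was 1.64 ± 0.183. ITGB3, a beta chain of vitronectin receptors, rose by 1.33 ± 0.109, ITGA2, of a collagen receptor, by 0.88 ± 0.12 and ITGB5 by 0.66 ± 0.0815. ITGA6 and ITGB4, which pair as the laminin receptor of hemidesmosomes, fell by 0.46 ± 0.0865 (adjusted p = 0.00207) and 0.99 ± 0.144 (adjusted p = 0.000275). ITGB1, the shared beta 1 chain, was at 0.035 ± 0.0878 (adjusted p = 0.832).

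Genes of the contractile cytoskeleton rose in 13 of 27 and fell in 2, with a median of 0.40, and without TGFb1 replicate 1, 2 or 3 only 1 fell. TAGLN, transgelin, an actin-binding protein of smooth muscle, measured 9.92, 9.60, 9.90 and 8.80 in TGFb1 arrays, against 8.38, 8.09, 8.26 and 8.04 in control arrays. TGFb1 replicate 4 was the lowest of its group, and the rise was 1.36 ± 0.205 (adjusted p = 0.000362). CNN1, calponin 1, rose by 1.11 ± 0.276 (adjusted p = 0.0125), with its groups overlapping through TGFb1 replicate 4. The CNN1 difference was -0.18 in replicate 4 and 1.49 to 1.58 in replicates 1 to 3. PALLD, a scaffold of stress fibres, measured 10.23, 10.15, 10.19 and 10.36 in TGFb1 arrays, against 9.14, 9.12, 9.12 and 8.92 in control arrays, and rose by 1.15 ± 0.0782 (adjusted p = 2.86e-07). MYO10, a motor of filopodia, rose by 1.56 ± 0.128. LIMA1, a stabiliser of actin bundles at epithelial junctions, fell by 0.76 ± 0.165 (adjusted p = 0.00575), and MYLK, myosin light chain kinase, by 0.82 ± 0.228 (adjusted p = 0.0228), and the MYLK call was lost without TGFb1 replicate 1 (-0.74, adjusted p = 0.0628), 2 (-0.75, adjusted p = 0.063) or 3 (-0.76, adjusted p = 0.054). ACTA2, smooth muscle alpha-actin, the usual marker of myofibroblasts, was at -0.048 ± 0.0962 (adjusted p = 0.782). PLEK2, a pleckstrin that binds phosphoinositides and shapes the actin cytoskeleton, was among the largest rises, with 11.26, 11.45, 11.19 and 11.34 in TGFb1 arrays, against 8.57, 8.48, 8.51 and 8.86 in control arrays and a rise of 2.70 ± 0.0921.

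Of 16 tubulins and microtubule proteins 6 rose and 0 fell, and 3 rose without control replicate 1, 3 or 4 or TGFb1 replicate 1. TUBA4A, an alpha-tubulin known from platelets and neurons, measured 12.39, 12.61, 12.23 and 12.33 in TGFb1 arrays, against 9.26, 9.29, 9.11 and 9.25 in control arrays. It rose by 3.16 ± 0.0935 (adjusted p = 1.79e-10), and TUBB3, a neuronal beta-tubulin, by 0.81 ± 0.162 (adjusted p = 0.00316), while TUBA1C, the brightest isotype tested in the alpha group, was at 0.10 ± 0.0915.

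Growth factors outside the TGFb family rose in several members. Of 14 FGF, PDGF and VEGF ligands and receptors 6 rose and 1 fell. PDGFA, the A chain of platelet-derived growth factor and a mitogen of fibroblasts, measured 11.03, 11.02, 11.06 and 11.08 in TGFb1 arrays, against 9.02, 8.67, 9.11 and 9.0 in control arrays. The 4 TGFb1 arrays lay closer together than the controls, and the rise was 2.10 ± 0.0835 (adjusted p = 1.87e-09). ANGPTL4, a secreted inhibitor of lipoprotein lipase with roles in vessels, had 12.13, 12.37, 12.07 and 11.62 in TGFb1 arrays, against 9.06, 9.13, 9.01 and 8.94 in control arrays (3.01 ± 0.127). VEGFC, a growth factor of lymphatic vessels, rose by 0.78 ± 0.092 (adjusted p = 4.51e-05), and VEGFA was at 0.24 ± 0.089 (adjusted p = 0.0845) and passed without TGFb1 replicate 4 (0.29, adjusted p = 0.0202). NRP1, a co-receptor of VEGF and semaphorins, fell by 0.65 ± 0.111, and its most variable probe set did not pass (-0.36, adjusted p = 0.28). Of 15 genes of the EGF family and its receptors 1 rose (6.67%) and 3 fell (20%), beside 8.39% and 9.97% of all genes tested. EREG, the EGF receptor ligand epiregulin, measured 6.83, 6.10, 6.55 and 5.81 in TGFb1 arrays, against 7.70, 8.08, 8.10 and 8.52 in control arrays. The lowest array was TGFb1 replicate 4, and EREG fell by 1.77 ± 0.201 (adjusted p = 3.31e-05). SPRY1, an inhibitor of receptor tyrosine kinase signalling, fell by 1.11 ± 0.191 while its relative SPRY4 rose by 0.62 ± 0.122, the 1 rise, which became 2 without TGFb1 replicate 4. With the mean of its probe sets SPRY4 did not pass (0.27, adjusted p = 0.0571).

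Notch and Hedgehog genes rose in 6 of 18 tested and fell in 0, with 3 rises and 1 fall without TGFb1 replicate 2, and with the replicate block 7 rose and 2 fell. JAG1, a Notch ligand, had no overlap between groups and rose by 2.12 ± 0.113 (adjusted p = 2.73e-08). LFNG, a glycosyltransferase that tunes Notch for its ligands, rose by 0.75 ± 0.116. GLI2, a transcription factor of the Hedgehog pathway that TGFb is known to induce in fibroblasts, measured 9.02, 8.63, 9.05 and 8.78 in TGFb1 arrays, against 7.53, 7.40, 7.52 and 7.36 in control arrays. All TGFb1 arrays lay above all controls (1.42 ± 0.102, adjusted p = 4.75e-07). GLI1, the usual Hedgehog target, rose by 0.58 ± 0.163 (adjusted p = 0.0238), a call lost without TGFb1 replicate 1, 2 or 3 or control replicate 4 (adjusted p = 0.0549 to 0.0696). NOTCH2, the receptor, was at 0.097 ± 0.0966.

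The WNT pathway was mixed, 4 up and 6 down of 28 and a median of -0.03. WNT11 and WNT5B, ligands of the branch without beta-catenin, rose by 1.02 ± 0.168 (adjusted p = 0.00075) and 0.60 ± 0.112 (adjusted p = 0.00205). WNT10A, a ligand of the beta-catenin branch, fell by 1.10 ± 0.174, the inhibitor DKK1 by 0.84 ± 0.0958 and the receptor FZD5 by 0.77 ± 0.114. Among 28 axon guidance genes 5 rose (17.9%) and 4 fell (14.3%), beside 8.39% and 9.97% of all genes tested. With the replicate block 7 of the axon guidance genes fell, where 15.8% of all genes tested fell. SEMA7A, a membrane-anchored semaphorin, measured 11.24, 10.93, 10.82 and 9.43 in TGFb1 arrays, against 9.12, 9.16, 9.31 and 8.52 in control arrays, and rose by 1.58 ± 0.297 (adjusted p = 0.00205), and SLIT3, a ligand of the ROBO receptors, rose by 0.93 ± 0.0863. SEMA3A, which repels growth cones through NRP1, fell by 0.98 ± 0.142 and NTN4, a netrin of basement membranes, by 1.17 ± 0.247. Of 22 targets of the Hippo effector YAP 6 rose and 4 fell, with NT5E, the ecto-nucleotidase CD73, up by 1.17 ± 0.0986 (adjusted p = 2.28e-06) and MYOF, a membrane repair protein, down by 0.62 ± 0.0877. With the replicate block 7 of this list fell, where 15.8% of all genes tested fell. Its median was 0.03 within replicates 1 to 3 and -0.56 within replicate 4.

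Interferon-stimulated genes fell in most of their tested members. Of 34 tested, 24 fell and 0 rose, beside 9.97% of all genes tested that fell, with a median of -0.90. IFIT2, a member of the IFIT family that restricts viral RNA, measured 9.26, 8.78, 9.34 and 9.21 in TGFb1 arrays, against 11.43, 11.26, 11.41 and 11.70 in control arrays. IFIT1 measured 8.33, 8.40, 8.43 and 9.31 in TGFb1 arrays, against 10.02, 9.99, 10.05 and 10.81 in control arrays. Both replicates 4 were the highest of their groups for IFIT1, and IFIT1 fell by 1.60 ± 0.22 (adjusted p = 0.000171). MX1, an antiviral GTPase, had 6.12, 6.30, 6.12 and 6.56 in TGFb1 arrays, against 8.21, 7.78, 7.94 and 9.91 in control arrays. It varied more than 1 log2 unit within the controls and fell by 2.18 ± 0.353 (adjusted p = 0.000645). IFIH1, the RNA sensor MDA5, measured 8.35, 7.75, 8.49 and 8.82 in TGFb1 arrays, against 9.48, 9.48, 9.61 and 10.52 in control arrays, and fell by 1.42 ± 0.233 (adjusted p = 0.000737). PARP9, a partner of the ubiquitin ligase DTX3L, fell by 1.28 ± 0.253 (adjusted p = 0.00293). PLSCR1, a scramblase induced by interferon, was at -0.51 ± 0.199 (adjusted p = 0.0966), and passed with the block (adjusted p = 0.000536) and without TGFb1 replicate 4 (-0.65, adjusted p = 0.0195). Another PLSCR1 probe set passed when tested separately (-0.57, adjusted p = 0.00978), while the rest did not. MX2 was at 0.12 ± 0.0728 and did not pass. With the replicate block 28 of the 34 fell.

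Of 17 tested receptors, kinases and factors of the interferon pathway above these genes, 0 rose and 3 fell (17.6%, beside 9.97% of all genes tested). IRF9, 1 of the 3, is also counted among the interferon-stimulated genes that fell. IRF9, the DNA-binding part of the interferon-activated complex, measured 9.38, 9.64, 9.39 and 9.72 in TGFb1 arrays, against 10.52, 10.34, 10.37 and 11.14 in control arrays, and fell by 1.06 ± 0.153 (adjusted p = 0.000252). STAT3, a transducer of gp130 cytokines, fell by 0.79 ± 0.109 (adjusted p = 0.000171), and STING1, an adaptor of cytosolic DNA sensing, by 0.66 ± 0.12 (adjusted p = 0.00151). JAK1, the receptor kinase, was at 0.012 ± 0.0886 and IFNGR2 at -0.096 ± 0.0895. Without TGFb1 replicate 4 there were 5 falls and 1 rise, and with the replicate block 2 genes rose and 4 fell.

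The interferon-stimulated response element has a core of GAAA, 2 bases of any kind and GAAA again, and RefSeq promoter windows were searched for it on both strands. It was in 3.57% of all 35116 windows, 2.76% of windows of tested genes, 1.32% of those of risen genes and 5.23% of those of fallen genes. Among genes that fell at least 2-fold it was in 12.6% of windows. Of 27 windows of the interferon-stimulated genes that fell, 17 (63.0%) held it, in 15 of the 21 such genes with a window. Since these genes are known for this element, their share describes the list and not the treatment. The windows of IFIT1, MX1, IFIH1 and PARP9 are shown because these genes fell and hold the core, with each match in capitals (the core or its reverse complement, with TTTC on either side of 2 bases). IFIT1 lies at chr10:89392373-89392672 (+), MX1 at chr21:41420308-41420607 (+), IFIH1 at chr2:162318635-162318934 (-) and PARP9 at chr3:122564251-122564550 (-), printed 5′ to 3′ along the gene. The first match begins at -116 from the start site in IFIT1, at 12 in MX1, at -159 in IFIH1 and at -41 in PARP9. IFIT1 has 2 matches, which do not overlap, and IFIH1 has 3, of which the first and the second overlap. MX1 has 3 windows in the table and PARP9 has 2, and 1 with a match is given for each.
IFIT1: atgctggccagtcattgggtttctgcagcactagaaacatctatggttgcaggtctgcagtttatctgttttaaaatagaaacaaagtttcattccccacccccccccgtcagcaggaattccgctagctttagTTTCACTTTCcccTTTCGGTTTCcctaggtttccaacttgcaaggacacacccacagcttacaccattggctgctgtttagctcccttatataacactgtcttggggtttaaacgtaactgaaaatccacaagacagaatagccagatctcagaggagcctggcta
MX1: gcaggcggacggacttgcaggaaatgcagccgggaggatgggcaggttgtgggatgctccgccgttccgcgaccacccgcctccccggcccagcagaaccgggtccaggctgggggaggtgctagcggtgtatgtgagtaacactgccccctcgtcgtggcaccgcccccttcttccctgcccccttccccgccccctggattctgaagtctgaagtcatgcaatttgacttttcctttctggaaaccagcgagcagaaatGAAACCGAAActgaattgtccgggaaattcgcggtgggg
IFIH1: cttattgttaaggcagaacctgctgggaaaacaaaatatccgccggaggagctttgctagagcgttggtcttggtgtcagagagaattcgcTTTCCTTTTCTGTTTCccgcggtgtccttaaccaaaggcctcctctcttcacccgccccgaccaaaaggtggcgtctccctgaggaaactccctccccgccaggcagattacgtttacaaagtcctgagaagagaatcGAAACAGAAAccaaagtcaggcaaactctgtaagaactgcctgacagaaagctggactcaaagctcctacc
PARP9: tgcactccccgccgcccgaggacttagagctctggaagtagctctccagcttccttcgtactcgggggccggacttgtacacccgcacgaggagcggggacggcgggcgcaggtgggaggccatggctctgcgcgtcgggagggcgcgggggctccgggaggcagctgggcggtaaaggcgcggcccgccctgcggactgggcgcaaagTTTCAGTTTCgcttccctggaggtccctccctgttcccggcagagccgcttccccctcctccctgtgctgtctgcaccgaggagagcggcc
IRF9, which fell as well, has a window without the core. No binding of a factor to these letters was measured.

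Genes of antigen presentation fell in 11 of 20 and rose in 0, with a median of -0.33. HLA-F, a class I molecule outside the classical set, measured 8.05, 7.90, 8.25 and 8.57 in TGFb1 arrays, against 8.92, 8.91, 8.96 and 9.91 in control arrays. It fell by 0.99 ± 0.208 (adjusted p = 0.00464), and control replicate 4 was the highest array. PSMB8 and PSMB9, catalytic subunits of the immunoproteasome, fell by 0.61 ± 0.115 and 0.56 ± 0.121, and TAP1, which carries peptides into the endoplasmic reticulum, by 0.56 ± 0.093 (adjusted p = 0.000827). HLA-C was at -0.26 ± 0.0852 (adjusted p = 0.0515) and passed with the replicate block (adjusted p = 0.0284) and without control replicate 2 (-0.32, adjusted p = 0.0211) or TGFb1 replicate 4 (-0.26, adjusted p = 0.0454). MICB, a stress ligand of natural killer cells, was at 0.31 ± 0.159.

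Inflammatory genes fell in 11 of 27 and rose in 1, with a median of -0.53, and 18 fell with the replicate block. LCN2, lipocalin 2, a siderophore-binding protein of epithelial defence, had 6.88, 6.10, 6.88 and 6.51 in TGFb1 arrays, against 9.62, 8.95, 9.56 and 9.63 in control arrays. CCL20, a chemokine for T cells and dendritic cells, measured 7.19, 6.86, 7.12 and 6.36 in TGFb1 arrays, against 9.01, 9.04, 8.90 and 9.72 in control arrays. TGFb1 replicate 4 was the lowest and control replicate 4 the highest of the 8 arrays for CCL20, and CCL20 fell by 2.28 ± 0.192. CXCL5, a neutrophil chemokine, fell by 2.15 ± 0.335 (adjusted p = 0.000479). C3, the central complement component, measured 5.60, 5.91, 5.66 and 6.68 in TGFb1 arrays, against 7.72, 7.46, 7.63 and 9.19 in control arrays, and fell by 2.04 ± 0.322 (adjusted p = 0.000549), with all TGFb1 arrays below the limit of 6.89. CXCL1 was at -0.57 ± 0.234 (adjusted p = 0.111) and CCL2 at -0.38 ± 0.162 (adjusted p = 0.127), and both passed with the block (adjusted p = 0.00608 for CXCL1 and adjusted p = 0.0109 for CCL2) and without TGFb1 replicate 4 (adjusted p = 0.021 and 0.0174). The other probe set of CXCL1 passed when tested separately (-0.60, adjusted p = 0.0434). The 1 rise, TNFAIP8 (0.56 ± 0.176, adjusted p = 0.0414), was lost without control replicate 1, 2 or 3 or TGFb1 replicate 1, 3 or 4, with adjusted p = 0.0641 to 0.115.

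Epithelial surface and secretory genes fell in 8 of 17 and rose in 0 (1 without TGFb1 replicate 4). TSPAN8, a tetraspanin of gut and pancreatic carcinoma, measured 7.17, 7.20, 7.17 and 7.88 in TGFb1 arrays, against 9.17, 9.06, 9.0 and 10.39 in control arrays. All TGFb1 arrays lay below all controls, and TSPAN8 fell by 2.05 ± 0.264 (adjusted p = 9.73e-05). AGR2, a disulfide isomerase needed for mucin production, measured 9.46, 9.94, 9.39 and 9.08 in TGFb1 arrays, against 11.36, 11.91, 11.50 and 11.05 in control arrays, and fell by 1.99 ± 0.194 (adjusted p = 8.6e-06). S100P, a calcium-binding protein of pancreatic carcinoma, had 9.69, 8.98, 9.83 and 7.71 in TGFb1 arrays, against 11.68, 10.51, 11.42 and 10.16 in control arrays. Its SD was 0.972 in TGFb1 arrays and 0.724 in controls, and S100P fell by 1.89 ± 0.458 (adjusted p = 0.011). EPCAM, an epithelial adhesion molecule, fell by 1.38 ± 0.147. SCNN1A, the alpha subunit of the epithelial sodium channel, fell by 1.18 ± 0.183 (adjusted p = 0.000463), the 1 fall among 10 genes of ion and water transport, of which 3 rose. CLIC3, a chloride channel family protein that recycles MMP14 and integrins, rose by 1.58 ± 0.196 (adjusted p = 7.23e-05). S100A6 and S100A4 were bright and did not pass (-0.12 and -0.12).

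**Figure D3:**
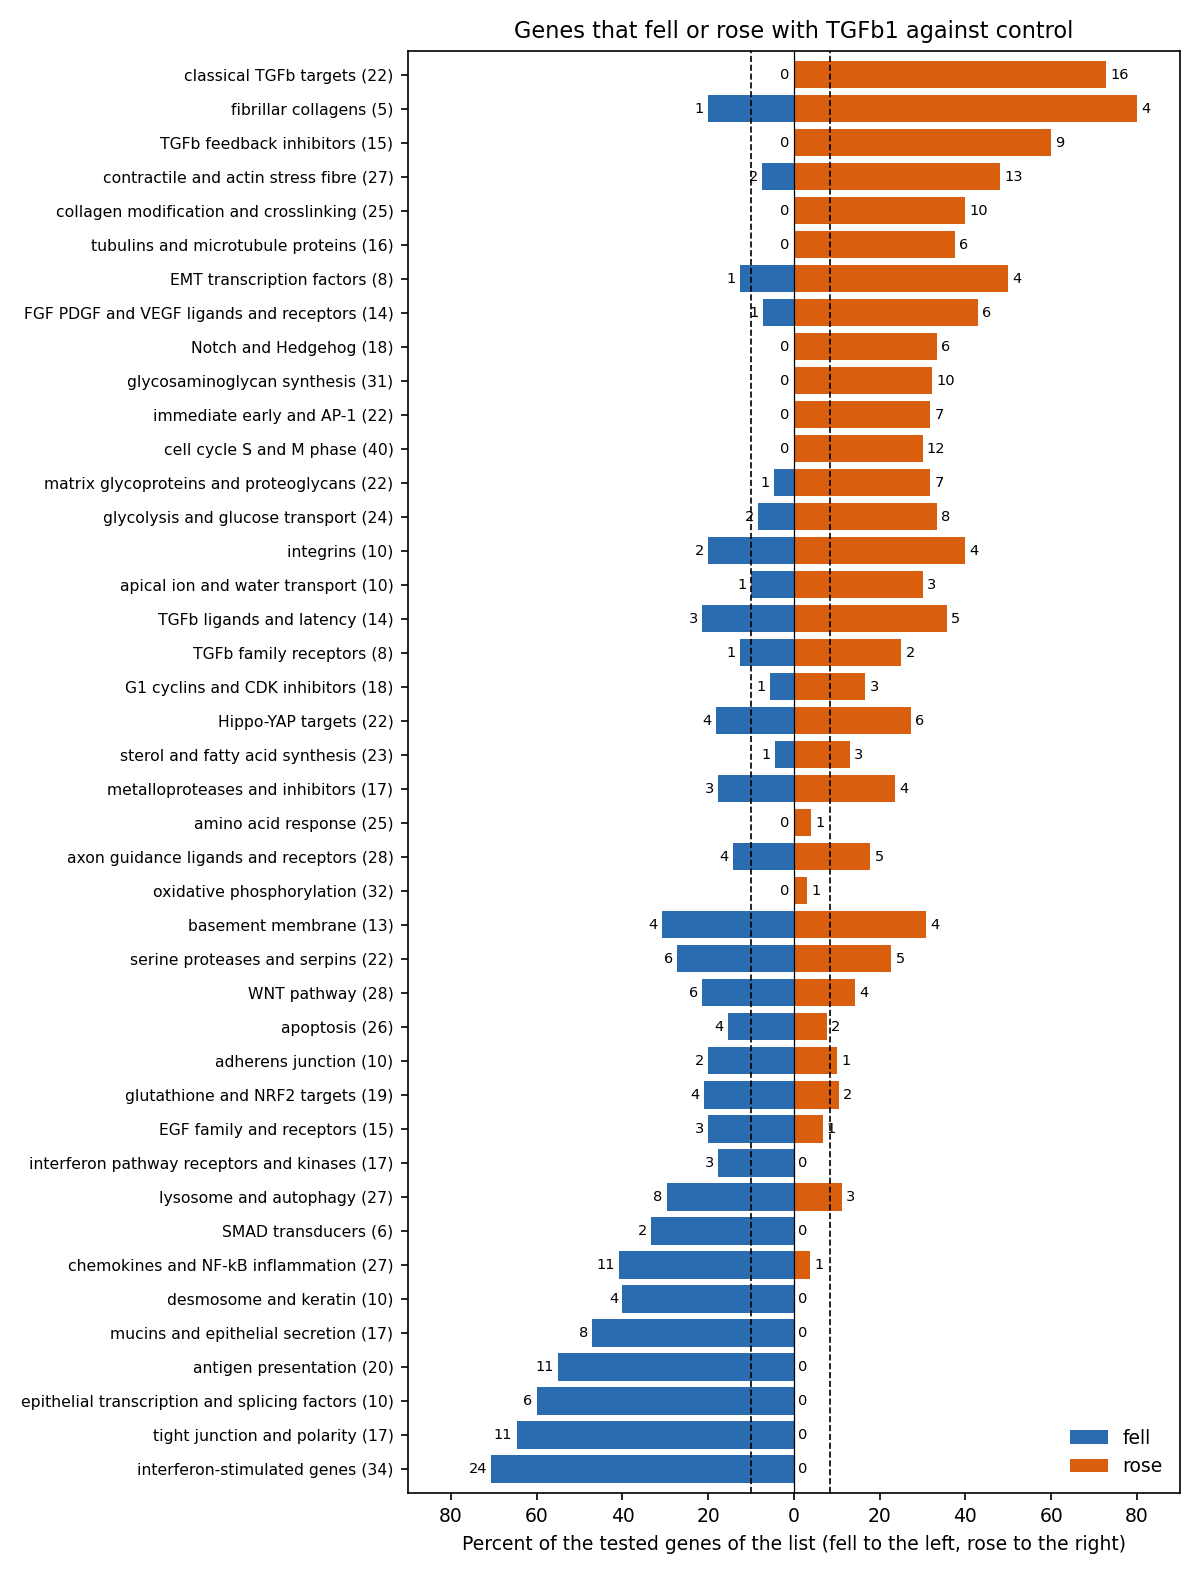
Share of the tested genes of each list that fell (blue, to the left) and rose (orange, to the right) with TGFb1 against control, with the number of genes beside each bar. Dashed lines mark the shares over all genes tested, 9.97% fallen and 8.39% risen. Fibrillar collagens (4 of 5) and known TGFb targets (16 of 22) reach farthest to the right, and interferon-stimulated genes (24 of 34) farthest to the left.

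Several of the largest changes lay outside these lists. DLX2, a homeobox factor of the forebrain and jaw, measured 10.29, 10.53, 10.39 and 10.28 in TGFb1 arrays, against 7.76, 8.22, 8.15 and 7.17 in control arrays. It rose by 2.55 ± 0.176 (adjusted p = 3.35e-07), with the highest value in TGFb1 replicate 2 and the lowest in control replicate 4. FOXS1, a forkhead factor of neural crest derivatives and pericytes, rose by 2.16 ± 0.299 (adjusted p = 0.000174), and KLF7, a zinc finger factor of neurons, by 1.99 ± 0.117 (adjusted p = 6.05e-08). BPGM, the enzyme that makes 2,3-bisphosphoglycerate in red cells, measured 10.82, 10.41, 10.73 and 10.37 in TGFb1 arrays, against 7.96, 8.09, 8.12 and 8.32 in control arrays. The rise was 2.46 ± 0.111 (adjusted p = 5.29e-09), with no overlap between groups. HTR1D, a serotonin receptor, rose by 2.29 ± 0.134 and NKAIN4, which interacts with the sodium pump, by 3.52 ± 0.192. TMEM92, a transmembrane protein, rose by 2.06 ± 0.101. KCNG1, a modifier subunit of potassium channels, rose by 1.43 ± 0.31 (adjusted p = 0.00536), with an overlap through TGFb1 replicate 4.

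Among the falls outside the lists, TXNIP, which binds thioredoxin and limits glucose uptake, measured 9.19, 8.65, 9.40 and 8.40 in TGFb1 arrays, against 11.46, 10.51, 11.20 and 10.84 in control arrays. ARRDC4, its arrestin-domain relative, measured 8.03, 7.11, 8.32 and 7.77 in TGFb1 arrays, against 10.16, 9.46, 10.12 and 9.77 in control arrays. Both fell, by 2.09 ± 0.241 (adjusted p = 3.72e-05) and 2.07 ± 0.229 (adjusted p = 2.66e-05). MAP2K6, a kinase that activates p38, fell by 2.03 ± 0.156, and PPP1R1B, the phosphatase inhibitor DARPP-32, by 2.33 ± 0.151. MYO5C, a myosin of secretory granules in gland cells, measured 7.69, 7.37, 7.59 and 7.94 in TGFb1 arrays, against 9.25, 9.49, 9.44 and 9.75 in control arrays, and fell by 1.84 ± 0.123 (adjusted p = 2.43e-07). ABCG2, a drug exporter, fell by 1.82 ± 0.202 (adjusted p = 2.83e-05) and RAB17, a GTPase of polarised epithelial transport, by 1.62 ± 0.312 (adjusted p = 0.00246). ANXA3, an annexin, fell by 1.78 ± 0.219.

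Of 24 genes of glycolysis and glucose transport 8 rose and 2 fell. PFKFB3, which makes the activator of phosphofructokinase, measured 10.36, 10.53, 10.35 and 10.19 in TGFb1 arrays, against 8.91, 8.86, 8.89 and 8.95 in control arrays. It rose by 1.46 ± 0.0756 (adjusted p = 2.39e-08) and LDHA, lactate dehydrogenase, by 0.32 ± 0.0698 (adjusted p = 0.00549), while ENO2 fell by 0.49 ± 0.083. GAPDH was at 0.004 ± 0.0603. The count of rises was 3 without control replicate 3, 4 without TGFb1 replicate 1 or 3 or control replicate 2, and 5 without TGFb1 replicate 2 or control replicate 4. Without any 1 array other than TGFb1 replicate 2, 1 gene fell. Of 23 genes of sterol and fatty acid synthesis 3 rose (13.0%) and 1 fell (4.35%), beside 8.39% and 9.97% of all genes tested. Of these 23, 5 rose without TGFb1 replicate 3 and 6 without control replicate 4 or with the replicate block. ABCA1, which exports cholesterol, measured 9.54, 8.40, 9.70 and 8.49 in TGFb1 arrays, against 7.03, 7.10, 7.35 and 7.90 in control arrays. It rose by 1.69 ± 0.292 (adjusted p = 0.00109), less in replicate 4 (0.59) than within replicates 1 to 3 (2.05). TXNRD1, thioredoxin reductase, fell by 0.79 ± 0.0717 (adjusted p = 4.47e-06) and ABCC3, an exporter of conjugates, by 1.08 ± 0.127, 2 of the 4 falls among 19 genes of glutathione and the NRF2 response, of which SRXN1 (0.28) and 1 other rose. Without control replicate 1, 3 or 4 or TGFb1 replicate 1 or 2, 1 of these rose.

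Lysosome and autophagy genes fell in 8 of 27 and rose in 3. NEU1, the lysosomal sialidase, measured 9.92, 10.04, 9.74 and 9.84 in TGFb1 arrays, against 10.77, 10.82, 10.73 and 10.90 in control arrays. It fell by 0.92 ± 0.0765 (adjusted p = 2.02e-06) and TPP1, a lysosomal peptidase, by 0.58 ± 0.0793 (adjusted p = 0.000171). ULK1, the kinase that starts autophagy, rose by 1.18 ± 0.23 (adjusted p = 0.00272), and TFEB, a factor of lysosomal genes, by 0.42 ± 0.103, while its relative MITF fell by 0.55 ± 0.123. CTSD, a bright lysosomal protease, was at -0.084 ± 0.0821.

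Of 66 cytosolic ribosomal protein genes 0 rose and 0 fell by limma, 2 of them had an unadjusted p under 0.05, and 1 rose with the replicate block and 1 without control replicate 1. RPL32 measured 14.54, 14.53, 14.52 and 14.57 in TGFb1 arrays, against 14.56, 14.48, 14.54 and 14.55 in control arrays, and its groups overlapped, with a change of 0.0044 ± 0.0558 (adjusted p = 0.969). RPS2 was at -0.0076 ± 0.0555. Of 32 genes of oxidative phosphorylation 1 rose and 0 fell (1 without TGFb1 replicate 4). That gene, UQCRC1, a core subunit of complex III, rose by 0.34 ± 0.109 (adjusted p = 0.0452) and was lost without control replicate 2, 3 or 4 or TGFb1 replicate 1, 2 or 3 (adjusted p = 0.0707 to 0.118). Of 35 complex I subunits, the first complex of the respiratory chain, 0 rose and 3 fell (8.57%, beside 9.97% of all genes tested). Without TGFb1 replicate 4, 5 of them fell. Of 75 mitochondrial ribosomal protein genes 2 rose and 2 fell, and without TGFb1 replicate 3 the rises numbered 8, without TGFb1 replicate 4 they numbered 4, and without any other single array at most 1, while with the replicate block 8 rose. Of 25 genes of the amino acid response 1 rose and 0 fell, with a median of -0.01 within replicates 1 to 3 and -0.54 within replicate 4. The 1 rise, ATF3 (0.55 ± 0.164, adjusted p = 0.0314), was lost without control replicate 1 or 3 or TGFb1 replicate 1 or 2 (adjusted p = 0.0853 to 0.0943), and without TGFb1 replicate 4 there were 3 rises. The ATF3 difference was -0.19 in replicate 4 and 0.70 to 1.00 in replicates 1 to 3. With the replicate block 2 genes of this list fell, where 15.8% of all genes tested fell, and 1 fell without TGFb1 replicate 1 or 3.

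Proliferation genes depended on single arrays. Of 40 genes of S phase and mitosis 12 rose and 0 fell (1 without TGFb1 replicate 4), and the count of rises was 4 without TGFb1 replicate 2 or control replicate 4, 5 without control replicate 2 and 7 without control replicate 1 or 3 or TGFb1 replicate 1. The median was 0.15 within replicates 1 to 3 and 0.61 within replicate 4. FOXM1, a transcription factor of G2 and mitosis, measured 9.14, 9.14, 9.01 and 9.28 in TGFb1 arrays, against 8.54, 8.75, 8.70 and 8.51 in control arrays. Its groups did not overlap, and the rise was 0.52 ± 0.0981 (adjusted p = 0.00223). MKI67, the marker of cycling cells, measured 9.59, 9.54, 9.49 and 10.82 in TGFb1 arrays, against 9.33, 9.62, 9.50 and 9.78 in control arrays. TGFb1 replicate 4 lay more than 1 log2 unit above the other 3, and the change of 0.30 ± 0.252 did not pass (adjusted p = 0.46). PCNA, a clamp of DNA replication, was at 0.15 ± 0.0982. Of 18 genes of the G1 phase 3 rose and 1 fell. CCND3, cyclin D3, rose by 0.67 ± 0.0967 (adjusted p = 0.000275) and CDKN1B, the inhibitor p27, fell by 0.70 ± 0.0953 (adjusted p = 0.000162), joined by other falls without TGFb1 replicate 3 (2 in all) or TGFb1 replicate 4 (3 in all). With the replicate block 6 of the G1 genes rose and 2 fell, where 13.2% of all genes tested rose and 15.8% fell.

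Cell death genes rose in 2 of 26 (7.69%) and fell in 4 (15.4%), beside 8.39% and 9.97% of all genes tested. With the replicate block 7 fell, where 15.8% of all genes tested fell. CASP1, the caspase that activates interleukin 1 beta, measured 6.35, 5.32, 6.58 and 7.17 in TGFb1 arrays, against 7.83, 7.38, 7.53 and 8.97 in control arrays. It fell by 1.57 ± 0.368 (adjusted p = 0.00886), and CASP4, an inflammatory caspase, by 0.69 ± 0.127 (adjusted p = 0.00178). FAS, a death receptor, fell by 0.54 ± 0.138 (adjusted p = 0.0156). Without control replicate 1 or 2 or TGFb1 replicate 1 or 4 1 gene rose, and without control replicate 3 none did.

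Of 201 solute carriers 19 rose and 23 fell, close to the shares over all genes tested. Of 291 ZNF zinc finger genes 12 rose (4.12%) and 21 fell (7.22%). Without TGFb1 replicate 4, 29 solute carriers rose and 37 fell, and 20 ZNF genes rose and 55 fell. Over all genes tested the counts also grew without it, from 913 and 1084 to 1317 and 1832. Without control replicate 3, 8 ZNF genes fell, where 750 of all genes tested fell. With the replicate block 35 solute carriers fell, and 25 ZNF genes rose and 46 fell, where 13.2% of all genes tested rose and 15.8% fell. SLC29A1, a nucleoside transporter, rose by 0.97 ± 0.121 (adjusted p = 7.23e-05), and ZNF217, a zinc finger gene amplified in some carcinomas, fell by 0.89 ± 0.132 (adjusted p = 0.000318). Of 45 Rab GTPases 1 rose (2.22%) and 6 fell (13.3%), beside 8.39% and 9.97% of all genes tested. Without TGFb1 replicate 4 there were 2 rises and 10 falls. Rises also numbered 2 without TGFb1 replicate 2 or with the replicate block. RAB31 was the rise (0.78 ± 0.106, adjusted p = 0.000161). Of 36 TRIM genes 0 rose and 7 fell, with 2 rises under the block and 1 without TGFb1 replicate 4, and of 19 histone genes 1 rose and 5 fell, H2AC6 by 0.70 ± 0.173 (adjusted p = 0.0124). Of 19 HOX genes 1 rose and 3 fell, HOXC13 by 0.75 ± 0.111 (adjusted p = 0.000303), and without TGFb1 replicate 4 there were 5 falls.

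The replicates 4 were profiled in addition to the first 3, so the main lists were also read within each set. The median TGFb1 minus control difference was -0.74 within replicates 1 to 3 and -1.31 within replicate 4 for interferon-stimulated genes. It was -0.48 and -0.89 for tight junction and polarity genes, -0.42 and -1.02 for inflammatory genes and 0.94 and 1.20 for known TGFb targets. For contractile genes it was 0.43 and 0.21 and for collagen modification 0.31 and 0.31. Of the 1997 genes called, 1981 had the same sign within replicates 1 to 3 and within replicate 4, and 16 had opposite signs.

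**Figure D4:**
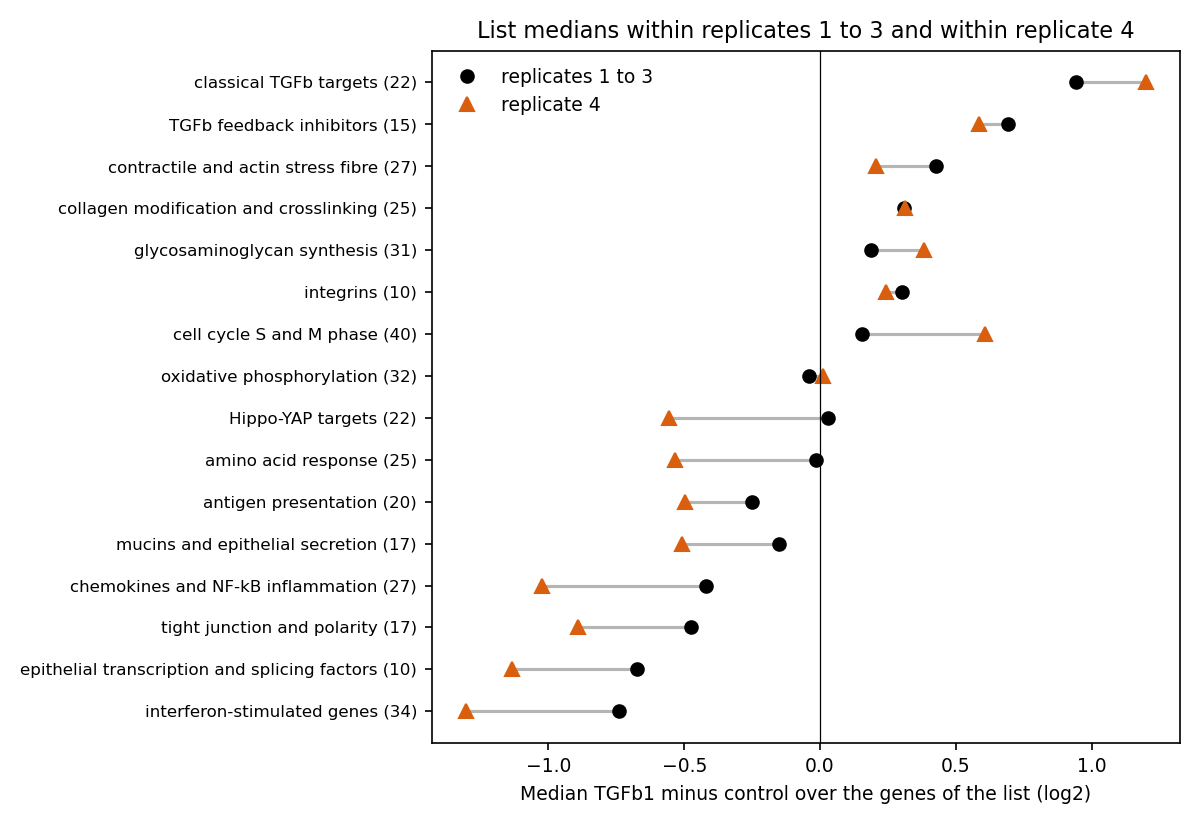
Median TGFb1 minus control difference on the log2 scale over the tested genes of each list, within replicates 1 to 3 (circles, 3 arrays a group) and within replicate 4 (triangles, 1 array a group). The triangle lies beyond the circle for interferon-stimulated genes (-1.31 and -0.74), while for cell cycle genes it lies at 0.61 against 0.15.

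Probe sets of a gene mostly read the same change. Of 24623 probe sets tested separately, 1186 called genes had more than 1. All tested probe sets passed in the same direction in 671 of these genes (56.6%), and all had the same sign in 1152 (97.1%). In 1 gene, C1orf56, probe sets passed in opposite directions, -0.41 (adjusted p = 0.0102) and -0.37 (adjusted p = 0.0199) and 0.49 (adjusted p = 0.0374). Its value of 0.49 ± 0.148 (adjusted p = 0.0353), from the brighter probe set, was lost without control replicate 1, 2 or 3 (adjusted p = 0.0777 to 0.101). The rule for choosing a probe set moved other named values. With the mean of all probe sets of a gene, the change was smaller by over 1.5 times, with the call kept, for CCND3 (0.35), CDH1 (-1.55), CHST3 (0.61), COL4A1, COL4A2 (1.32), DLX2 (1.16), FZD5 (-0.29), GDF15 (-0.57), ITGB3 (0.89), ITGB4 (-0.56), LAMA4 (0.53), LAMA5 (-0.43), NRP1 (-0.39), PFKFB3 (0.87), PSMB9 (-0.35), SCNN1A (-0.65) and SLC29A1 (0.64). It was larger for LIMA1 (-1.41), and SMAD2 passed (-0.36, adjusted p = 0.0414) while UQCRC1 did not (adjusted p = 0.0973). With the most variable probe set the change was larger for BMP1 (0.68), ENG (0.77), MITF (-0.84) and TXNRD1 (-1.24). With it HLA-C passed (-0.49, adjusted p = 0.00493), and SMAD3 (-0.32, adjusted p = 0.0572), TCF3 (0.33, adjusted p = 0.186) and UQCRC1 (adjusted p = 0.0525) did not.

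Unless another fit is named, the adjusted p values use the spread of all 14 arrays, the drug-treated ones included. With the 8 TGFb1 and control arrays alone in the fit, 27 of the called genes named here no longer passed, with adjusted p = 0.0503 to 0.161 and the same changes. They were ACVR1, AGRN, ATF3, C1orf56, CASP1, CCN2, CLDN1, CNN1, ENG, FAS, FOXA2, GLI1, H2AC6, KLF5, KRT19, LAMA4, LDHA, MITF, MYLK, SMAD1, SRXN1, TFEB, TGFB1, THBS1, TNFAIP8, TWIST2 and UQCRC1. With no filter on dim genes the calls of KRT19, LAMA4, TNFAIP8 and UQCRC1 were lost (adjusted p = 0.0521 to 0.0586).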

How the data were processed

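RNA of PANC-1 cells was profiled on Affymetrix expression arrays, and the deposited values are log2 intensities per probe set that the authors made with RMA in affy 1.44.0, per the submitters' processing notes. The genome build is not given in the sources used here, and the depth of a count table does not apply, so precision is set by the number of arrays. Of 49193 probe sets 44898 carried 1 gene symbol, 1825 several and 2470 none. The probe set with the highest mean stood for each of 18129 genes, and the dimmest 40% by mean over all arrays were left out, which kept 10877.

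limma 3.58.1 in R 4.3.3 fitted 1 mean per group over all 14 arrays, with Benjamini-Hochberg adjustment over all genes tested and a threshold of 0.05, and every adjusted p is from it unless another fit is named. Groups came from sample titles. The replicate number was entered as a block in an alternative fit only, because each TGFb1 and control pair correlated above 0.1 over 4 replicates. Within replicates 1 to 3 alone the pair of replicate 1 correlated at -0.258, so pairing of these arrays is not settled. The block is given where it changes a call. On simulated data for this comparison, with 200 of 10877 genes changed, 60% of changes of 0.5 and 96% of changes of 1 on the log2 scale were found, and 7.69% of the calls were false. The simulated noise had 1 SD per gene in all arrays and was independent between arrays. The real arrays differ in spread, share deviations by replicate number and gave 1997 calls, so these rates may not hold for them.

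The comparison, gene lists, families and naming rule were chosen with earlier results of these data known. Named were the 20 largest non-overlapping rises and falls, up to 4 passing members a direction and up to 2 not passing with the highest mean from each of 52 lists, the largest rise and fall of each of 45 families, a fixed set of transition and TGFb genes, the brightest gene of each direction and genes whose probe sets disagreed. Not all of these 375 genes are described, and 1 list is not reported here. Lists are described by counts and medians only. Python 3.11.15 and matplotlib 3.10.9 were used for tables and figures. Alternatives were other filters, probe set rules, normalisations, spread estimates, thresholds and left-out arrays.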

Additional observations from a re-analysis of the deposited data

Results flagged for a closer look

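Each group of 4 arrays was tested for 1 array far from the other 3 by Dixon's ratio, for every gene the text names. Of 460 such groups 56 held an array past the critical value of 0.829, and chance alone gives about 1 in 20. TGFb1 replicate 4 was the array in 26 of them and control replicate 4 in 28. The genes are not independent of each other, since they share the arrays. Values are log2 intensities, with the range of the other 3 arrays of the group behind each.

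Replicate 4 of TGFb1 lay above its group for C1orf56 at 9.77 (the others 9.21 to 9.25), CHST11 at 9.46 (the others 8.85 to 8.93), HAS2 at 9.49 (the others 8.23 to 8.37), IFIT1 at 9.31 (the others 8.33 to 8.43) and LAMA4 at 9.48 (the others 8.02 to 8.08). Replicate 4 of TGFb1 was the highest of its group for MKI67 at 10.82 (the others 9.49 to 9.59), MYLK at 7.45 (the others 6.52 to 6.60), PCNA at 13.04 (the others 12.53 to 12.61), PLSCR1 at 11.03 (the others 10.41 to 10.49) and SMAD6 at 9.82 (the others 8.32 to 8.43). Replicate 4 of TGFb1 stood over the other 3 arrays of its group for SPRY1 at 10.12 (the others 9.12 to 9.23), TGFBI at 13.93 (the others 13.61 to 13.64), TGFBR3 at 7.0 (the others 6.23 to 6.30), THBS1 at 12.22 (the others 11.04 to 11.12) and TSPAN8 at 7.88 (the others 7.17 to 7.20). Replicate 4 of TGFb1 lay below its group for CNN1 at 8.41 (the others 9.88 to 10.08), COL1A1 at 11.24 (the others 12.45 to 12.48), FOXS1 at 7.23 (the others 8.78 to 8.92), KCNG1 at 7.28 (the others 8.69 to 8.94) and MFGE8 at 11.32 (the others 12.43 to 12.45). Replicate 4 of TGFb1 was the lowest of its group for MYC at 12.09 (the others 12.67 to 12.78), NOG at 11.07 (the others 11.98 to 12.14), SDC4 at 11.25 (the others 11.68 to 11.74), SPINT1 at 8.27 (the others 8.69 to 8.75) and TGIF1 at 11.46 (the others 11.76 to 11.78). Replicate 4 of TGFb1 stood under the other 3 arrays of its group for ULK1 at 9.79 (the others 10.89 to 11.06).

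Control replicate 4 lay above its group for ABCC3 at 11.49 (the others 10.84 to 10.90), C3 at 9.19 (the others 7.46 to 7.72), CCL20 at 9.72 (the others 8.90 to 9.04), HLA-F at 9.91 (the others 8.91 to 8.96) and IFIH1 at 10.52 (the others 9.48 to 9.61). Control replicate 4 was the highest of its group for IFIT1 at 10.81 (the others 9.99 to 10.05), ITGA2 at 10.18 (the others 9.81 to 9.87), P4HB at 13.30 (the others 13.11 to 13.14), PCNA at 12.64 (the others 12.49 to 12.51) and PLAU at 13.69 (the others 13.20 to 13.24). Control replicate 4 stood over the other 3 arrays of its group for PSMB9 at 11.41 (the others 10.86 to 10.92), RAB31 at 11.50 (the others 11.21 to 11.23), S100A4 at 13.80 (the others 13.29 to 13.36), SDC4 at 12.69 (the others 12.42 to 12.46) and STING1 at 8.04 (the others 7.77 to 7.78). Control replicate 4 exceeded its group for TGFBR3 at 8.66 (the others 7.32 to 7.54) and TSPAN8 at 10.39 (the others 9.0 to 9.17). Control replicate 4 lay below its group for COL1A1 at 7.85 (the others 8.61 to 8.73), FOXA2 at 7.90 (the others 8.63 to 8.65), FOXS1 at 5.84 (the others 6.40 to 6.44), ITGA5 at 8.88 (the others 9.54 to 9.64) and MFGE8 at 11.39 (the others 12.28 to 12.43). Control replicate 4 was the lowest of its group for MYC at 11.62 (the others 12.39 to 12.49), PALLD at 8.92 (the others 9.12 to 9.14), SLC29A1 at 10.49 (the others 10.78 to 10.83), TGFB1 at 7.73 (the others 9.01 to 9.06) and VEGFC at 8.83 (the others 9.05 to 9.06). Control replicate 4 stood under the other 3 arrays of its group for ZEB2 at 4.77 (the others 5.10 to 5.15).

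Other arrays were past the value in 2 groups. TGFb1 replicate 3 had GRHL3 at 7.66, beside 7.98 to 8.0 in the other 3 arrays. Control replicate 2 had LCN2 at 8.95, beside 9.56 to 9.63 in the other 3 arrays.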

How the results depend on the processing

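In the fit without the replicate block 913 genes rose and 1084 fell. The counts were 453 and 510 with the TGFb1 and control arrays alone, 2841 and 3416 with array weights (whose estimation stopped short of its convergence tolerance), 1432 and 1716 with the replicate block, 1648 and 1899 with a batch term for replicates 4, and 1385 and 1770 without both replicates 4. At an adjusted p of 0.01 they were 486 and 565, and with at least a 2-fold change 136 and 144. Leaving out 1 array gave 637 to 1317 rises and 750 to 1832 falls, the highest of both without TGFb1 replicate 4 and the lowest without control replicate 3. The other filters, probe set rules and normalisations stayed within 1.5 times. With the block no named gene lost its call and 9 gained one, each given in the text. The sign of C1orf56 turned to -0.087 with the mean of probe sets and to -0.37 with the most variable probe set. The cause of these shifts was not tested. Small changes and genes near the lower end of the signal were measured with the least power, 4 arrays a group and 1 line limit what can be called, and the groups' arrays rest on 1 time and dose.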

Other observations

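Early response genes of the serum and AP-1 type rose in 7 of 22 tested and fell in 0, beside 8.39% and 9.97% of all genes tested. Without control replicate 1 or 3 there were 4 rises, without TGFb1 replicate 1, 3 or 4 or control replicate 4 there was 1 fall, and with the replicate block 9 rose and 4 fell. SRF, the serum response factor that drives actin and early genes, measured 10.20, 10.26, 10.04 and 9.90 in TGFb1 arrays, against 9.53, 9.66, 9.60 and 9.35 in control arrays. All TGFb1 arrays lay above all control arrays, and the rise was 0.57 ± 0.0897 (adjusted p = 0.000546). SRF did not pass with the mean of its probe sets (0.47, adjusted p = 0.0792) or with the most variable one (0.38, adjusted p = 0.389). Of 11 claudins 0 rose and 5 fell, and CLDN11, a claudin of myelin and testis, had the largest fall of them. CLDN11 measured 6.62, 5.87, 6.76 and 5.93 in TGFb1 arrays, against 8.29, 7.59, 8.15 and 7.05 in control arrays, and fell by 1.48 ± 0.266 (adjusted p = 0.00153). Of 11 PARP enzymes 0 rose and 4 fell. Of 22 ABC transporters 1 rose and 6 fell, and without control replicate 4 there were 2 rises and with the replicate block 3.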
